A study of Homo sapiens with 12 samples.

Results

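Line 87 was one of 3 T24 lines labelled overexpression U11, and its 2 libraries (87-1 and 87-3) were compared here with the 4 libraries of the others, line 79 (79-1 and 79-3) and line 86 (86-1 and 86-3). The members were chosen by the line number in the library names, with no measured value used, and they are 2 of the 12 libraries of the series. T24 is an established human bladder cancer cell line. The overexpression libraries came from T24 cells that carried a U11 expression plasmid, selected after transfection into stable monoclonal lines, while the controls came from untreated T24 cells (T24P3 and T24-4). Neither the labels nor the methods say what the numbers 79, 86 and 87 stand for, so a line may be a single clone, and the 2 libraries of a line may share one culture. The P-values below then measure only the spread between these libraries. Every line had 1 library with the code prefix R17018 (ending in 1) and 1 with the prefix R18019 (ending in 3), and 1 untreated library carried each prefix. Values of a line are given in that order.

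U11 is a small nuclear RNA (snRNA) of the minor spliceosome, the machinery that removes the rare U12-type introns. Together with U12 snRNA it recognises such an intron, and U11 is the partner that pairs with the 5′ splice site at the intron start. U11 is much less abundant in cells than the snRNAs of the major spliceosome, and few genes carry a U12-type intron.

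The deposited tables hold 60504 genes with their TPM, an abundance per transcript length that sums to the same total in each library. A gene was tested where at least 2 of the 6 overexpression libraries reached 1 TPM, which left 15457 genes. The 8 libraries held from 9.07 to 15.3 aligned gigabases, 11.02 and 10.24 of them in line 87. Epithelial keratins were abundant in all 8 libraries (KRT8 stood between 1080 and 1458 TPM, and KRT7 between 3503 and 6703 TPM), as was vimentin at 1939 to 2887 TPM, while CDH1, KRT5 and UPK1B were at or near 0. The sum of the leukocyte list, which also held the haemoglobin gene HBB of red cells, stayed at or below 7.23 TPM. It was higher in the 4 libraries of R18019 than in those of R17018. HBB stood between 2.65 and 3.65 TPM in R18019 and did not exceed 0.98 TPM in R17018. LYZ stood between 1.55 and 1.68 TPM in R18019 and at 0 in R17018. Both groups of lines held libraries of both prefixes. In bulk RNA of this kind, fewer cells of a type and less RNA per cell cannot be told apart.

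The U11 gene lies on chromosome 1 at chr1:28648600-28648733 (hg38, plus strand), and is shown whole because its level sets line 87 apart from the other lines. The first capitals mark the letters that are complementary to the CCTT of a U12-type 5′ splice site (positions 4 to 7 of the 134 bases), and the second mark the Sm site (positions 87 to 95), where the ring of Sm proteins binds.

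RNU11: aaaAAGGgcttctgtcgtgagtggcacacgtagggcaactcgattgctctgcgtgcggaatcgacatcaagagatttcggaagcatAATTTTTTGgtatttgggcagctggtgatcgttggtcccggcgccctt

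U11 was far more abundant in line 87 than in any other library of these code prefixes. Summed over its 2 overlapping entries, it stood at 61.9 and 53.6 TPM in line 87, at 3.98 and 3.72 TPM in line 86, at 0.183 and 0.412 TPM in line 79, and at 0.0334 and 0.623 TPM in the untreated libraries. Line 87 was thus the line with the most U11, line 86 came next, and the values of line 79 lay within the range of the untreated libraries. The mean was 57.7 ± 5.84 TPM (SD, n = 2) in line 87 and 2.08 ± 2.06 TPM (SD, n = 4) in lines 79 and 86, a ratio of 27.8, and against line 86 alone the ratio was 14.98. The two-sided exact permutation p for this difference in means, taken as 2 times the one-sided value, was 0.133, the smallest that 2 libraries against 4 can give in this way. Counting only arrangements with a difference of at least this size in either direction gave an exact p of 0.0667.

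**Figure D1:**
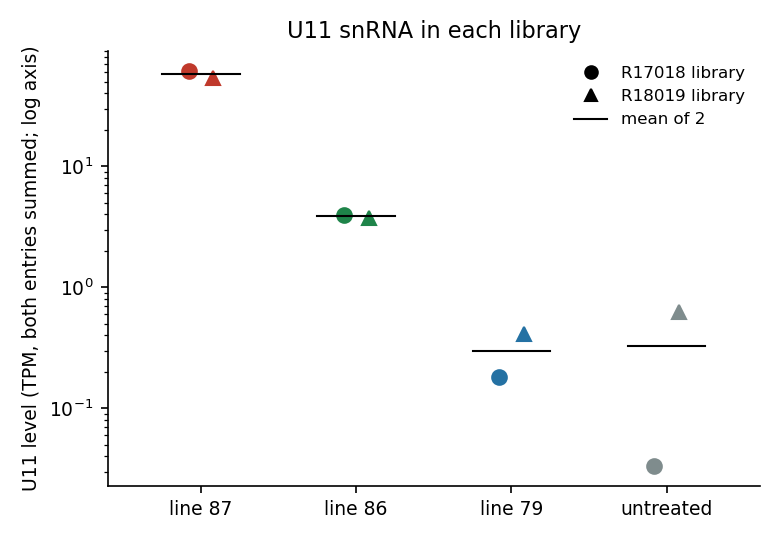
U11 level of each library in TPM, summed over both entries, on a log axis. Points are libraries, with the shape giving the code prefix, and lines are means of 2. Both libraries of line 87 (61.9 and 53.6 TPM) lie above the libraries of line 86 (3.98 and 3.72 TPM), and line 79 lies in the range of the untreated libraries.

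The entry ENSG00000270103, which holds most of this signal, differed by 4.59 (SE 0.69) on the log2(TPM + 1) scale with an adjusted P of 0.0536, which missed the threshold used for calls. The entry ENSG00000274978 stood at 1.64 and 1.43 TPM in line 87 and at no more than 0.183 TPM in the other 4 libraries. Its difference of 1.20 (SE 0.16) was called with an adjusted P of 0.0355, which became 0.0900 with the replicate number as a block. How Stringtie shared reads between these overlapping entries was not tested.

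The next question was which other genes set line 87 apart from the lines that carry the same label. A gene was called when its limma P-value, adjusted by Benjamini-Hochberg over all 15457 genes, was under 0.05 and its fold change on the log2(TPM + 1) scale was at least 1.5. This scale understates the change of genes at low levels. Of the genes tested, 100 (0.647%) were called, 51 higher (0.33%) and 49 lower (0.317%) in line 87, and 88 of the 100 were protein-coding. For all 100, both libraries of line 87 lay on one side of the other 4, which 11.6% of all genes tested did on the upper side and 11.7% on the lower side. The median difference over all genes was 0.003. At the thresholds of an unadjusted P under 0.05 and the same fold, 623 genes (4.03%) differed, 342 higher (2.21%) and 281 lower (1.82%).

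These calls treat the 6 libraries as independent. With the replicate number as a block, 19 genes (0.123%) were called, all of them among the 100, and the adjusted P of the other 81 ran from 0.0527 to 0.141. With the 2 libraries of a line averaged, so that 1 line stood against 2, limma called 0 genes (lowest adjusted P 0.455), and 524 genes, all 100 among them, had an unadjusted P under 0.05. Whether a difference belongs to the amount of U11 or to the line cannot be told apart here, since only 1 line had U11 at this level.

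**Figure D2:**
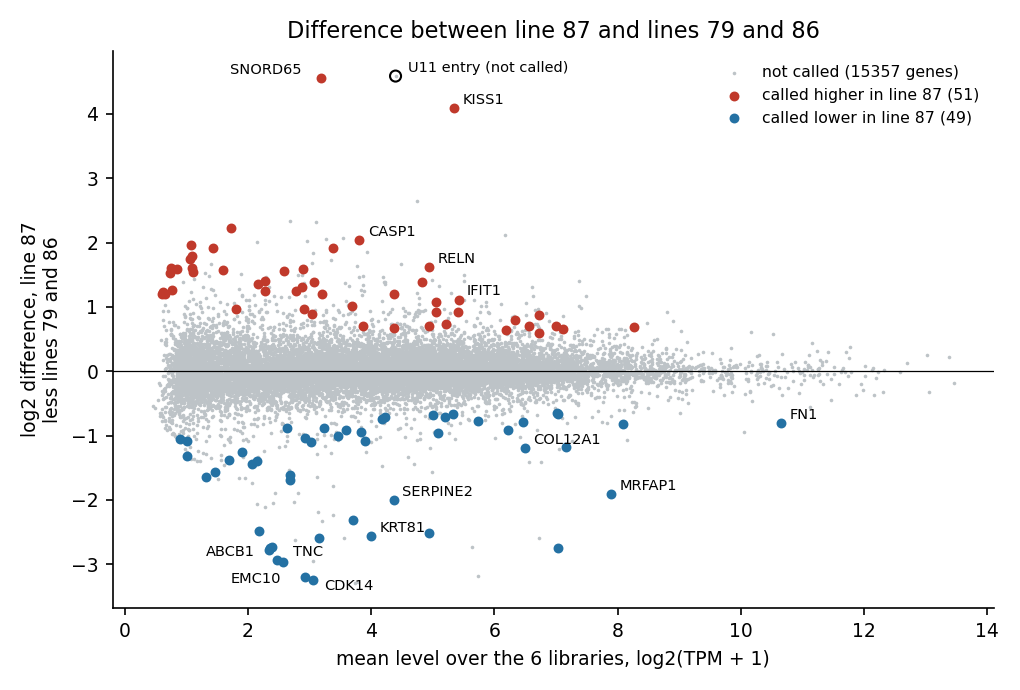
Difference of each gene between line 87 and lines 79 and 86 (log2 scale, vertical) against its mean level over the 6 libraries (log2(TPM + 1), horizontal). Red points are the 51 genes called higher and blue points the 49 called lower, and grey points were not called. The open circle is the larger U11 entry. SNORD65 and KISS1 are the called genes with the largest rise, and CDK14 and EMC10 those with the largest fall.

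The largest falls were of genes that the other lines expressed at moderate levels and that were at or near 0 in line 87. CDK14, a cyclin-dependent kinase that takes part in WNT signalling, stood at 0.462 and 0.0543 TPM in line 87, at 9.36 and 9.14 TPM in line 79, at 12.4 and 12.6 TPM in line 86, and at 9.67 and 9.01 TPM in untreated cells (log2 difference −3.24, SE 0.21, adjusted P 0.00356). ABCB1, the drug efflux pump known as P-glycoprotein, stood at 0.0143 and 0 TPM in line 87, at 5.46 and 5.69 TPM in line 79, at 7.76 and 8.30 TPM in line 86, and at 5.75 and 5.65 TPM in untreated cells (−2.94, SE 0.19, adjusted P 0.00370). In both genes the untreated libraries sat with lines 79 and 86, and line 87 stood alone.

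CDK14 and ABCB1 are near each other on the long arm of chromosome 7, and each had a called neighbour. ABCB4, a phospholipid transporter that lies next to ABCB1, stood at 0 and 0.0183 TPM in line 87 and between 1.29 and 1.66 TPM in the other 4 libraries (−1.31, SE 0.15, adjusted P 0.0223, and 0.0806 with the block). FZD1, a WNT receptor next to CDK14, stood at 0.986 and 0.904 TPM in line 87 and between 3.62 and 4.94 TPM in the others (−1.43, SE 0.16, adjusted P 0.0193, and 0.0840 with the block). The stretch from ABCB4 to FZD1 runs from base 87401697 to base 91271326 of chromosome 7 (hg38). It was not lower as a whole. The 8 tested genes that lie between ABCB1 and CDK14 differed by −0.11 to 1.15, and none was called. CDK14 overlaps CLDN12 on the same strand, which was not called (0.47, SE 0.59).

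Other genes followed the pattern of near absence. EMC10, a subunit of the complex that inserts membrane proteins in the endoplasmic reticulum, stood at 0.288 and 0.0722 TPM in line 87, at 8.69 and 8.25 TPM in line 79, at 10.6 and 11.8 TPM in line 86, and at 8.28 and 11.6 TPM in untreated cells (−3.19, SE 0.18, adjusted P 0.00198). WDR72 stood at 0.00897 and 0.0138 TPM against 4.79 to 7.24 TPM in the other lines (−2.79, SE 0.20, adjusted P 0.00521). ADGRL2, an adhesion receptor of the latrophilin family, stood at 0.0911 and 0.0997 TPM against 5.31 to 8.58 TPM (−2.73, SE 0.20, adjusted P 0.00530). KIRREL3, an immunoglobulin-like adhesion molecule, and SLITRK4, a neuronal membrane protein, were also near 0: KIRREL3 stood at 0.0859 and 0.133 TPM against 4.20 to 6.07 TPM, and SLITRK4 at 0.0359 and 0.0258 TPM against 2.12 to 2.47 TPM. NTNG1, a netrin of the axon guidance family, was low but not absent, at 1.28 and 0.813 TPM against 9.65 to 13.8 TPM (−2.58, SE 0.19, adjusted P 0.00530). These 6 genes, like CDK14 and ABCB1, were still called with the replicate number as a block. Both untreated libraries lay above both libraries of line 87 in each of the 6.

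SNORD18C and SNORD65 are small nucleolar RNAs that lie inside other genes on the same strand. SNORD18C stood at 0.0202 and 0.0182 TPM in line 87 and at 2.77 to 8.41 TPM in the other lines (−2.74, SE 0.37, adjusted P 0.0401, and 0.120 with the block). SNORD65 went the other way, at 26.2 and 22.3 TPM in line 87 and no more than 0.0777 TPM in the others (4.56, SE 0.13, adjusted P 0.000164). The untreated libraries disagreed on SNORD65, at 0.0843 and 29.4 TPM, a gap wider than the difference between the lines. In 5 of the 100 called genes, among them UBE2E3 (adjusted P 0.0900 with the block), COPS7A (0.0827) and the transcript RP11-864I4.1 (0.0654), the untreated libraries differed by more than the lines, beside 48.9% of all genes tested. A call needs a fold of at least 1.5, so a lower share among called genes followed from the selection.

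MRFAP1 showed the opposite arrangement to CDK14, and was singled out after its values were seen. It encodes a nuclear protein that binds the chromatin factor MORF4L1. MRFAP1 stood at 87.2 and 78.5 TPM in line 87 and at 93.9 and 85.03 TPM in untreated cells, but at 315 and 315 TPM in line 79 and at 304 and 321 TPM in line 86. The difference of −1.91 (SE 0.08, adjusted P 0.000634, and 0.00918 with the block) thus set lines 79 and 86 apart, with line 87 near the level of untreated cells.

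Several genes of the extracellular matrix and of cell adhesion fell in line 87. Fibronectin, the main adhesive glycoprotein of the matrix, was among the most abundant called genes. FN1 stood at 1074 and 1069 TPM in line 87, at 1838 and 1777 TPM in line 79, at 2005 and 1906 TPM in line 86, and at 1997 and 1901 TPM in untreated cells (−0.81, SE 0.08, adjusted P 0.0170, and 0.0654 with the block). TNC, the matricellular protein tenascin-C, was all but absent at 0 and 0.0189 TPM, against 10.3 and 10.03 TPM in line 79, 5.45 and 3.75 TPM in line 86, and 12.3 and 11.7 TPM in untreated cells (−2.96, SE 0.37, adjusted P 0.0311, and 0.116 with the block). FBN1, the microfibril protein fibrillin-1, stood at 56.9 and 59.6 TPM against 95.6 to 110 TPM (−0.79, SE 0.09, adjusted P 0.0223, and 0.0814 with the block). Of the 13 tested genes in the list of fibronectin and matricellular genes, these 3 were called lower and 0 higher, 10 lay below 0, and the median was −0.40. Over all genes tested 0.317% were called lower and 0.33% higher, and 50.5% lay above 0.

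Among 16 collagens tested, 2 were called lower and 0 higher, with a median of −0.24, beside 0.317% called lower over all genes tested. COL12A1, a collagen that decorates fibrils, stood at 45.5 and 49.7 TPM in line 87 and at 98.6 to 120 TPM in the other lines (−1.19, SE 0.10, adjusted P 0.0108, and 0.0424 with the block). COL4A2, a basement membrane chain, stood at 184 and 173 TPM against 279 to 347 TPM (−0.83, SE 0.10, adjusted P 0.0311, and 0.0853 with the block). Its partner COL4A1, whose gene lies beside it, had a difference of −1.20 (SE 0.19) that missed the threshold with an adjusted P of 0.0667.

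The receptors for these proteins lay mostly on the same side. Of 13 integrin subunits tested, 12 lay below 0 and the median was −0.44, while 50.5% of all genes tested lay above 0. Of the 13, 1 was called lower, beside 0.317% of all genes tested. It was ITGB3, the beta chain of a vitronectin receptor, at 11.7 and 11.2 TPM in line 87 against 19.5 to 21.2 TPM (−0.75, SE 0.09, adjusted P 0.0302, and 0.0894 with the block). SERPINE2, a secreted inhibitor of plasminogen activators and thrombin, stood at 5.31 and 6.11 TPM in line 87 against 19.5 to 32.9 TPM (−2.003, SE 0.24, adjusted P 0.0286, and 0.109 with the block). LRP1, the endocytic receptor that clears such inhibitors, and MCAM, an adhesion molecule, were also called lower, by −1.04 (SE 0.14, adjusted P 0.0352, and 0.0889 with the block) and −0.67 (SE 0.09, adjusted P 0.0414, and 0.116 with the block).

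Epithelial and lineage genes held a few clear falls. KRT81, a hair-type keratin, stood at 2.54 and 2.99 TPM in line 87, at 22.6 and 20.8 TPM in line 79, at 21.3 and 19.8 TPM in line 86, and at 13.2 and 11.9 TPM in untreated cells (−2.56, SE 0.11, adjusted P 0.000634, and 0.0105 with the block). KRT17, a keratin of basal and injured epithelium, stood at 2.93 and 2.02 TPM against 10.1 to 22.7 TPM in the other lines and 49.2 and 39.98 TPM in untreated cells (−2.31, SE 0.31, adjusted P 0.0367, and 0.118 with the block). These were the 2 called of 10 keratins tested, whose median was −0.18, beside 0.317% called lower over all genes tested. GATA3, a transcription factor of the luminal urothelium, stood at 6.78 and 6.31 TPM in line 87, against 11.9 to 14.9 TPM in the other lines and 17.4 and 13.6 TPM in untreated cells (−0.92, SE 0.13, adjusted P 0.0402, and 0.120 with the block). It was 1 of 8 urothelial genes tested, and no other of them was called. The small secreted protein gene C5orf46 stood at 6.18 and 5.98 TPM against 28.4 to 59.6 TPM (−2.52, SE 0.30, adjusted P 0.0263, and 0.105 with the block).

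The NOTCH pathway had called genes at several levels, a ligand, a modifier of the receptor and a target. NOTCH receptors are switched on by ligands of a neighbouring cell, and HES1 is the classical gene they induce. JAG1, a ligand, stood at 35.3 and 34.6 TPM in line 87, at 62.7 and 64.4 TPM in line 79, at 59.1 and 56.1 TPM in line 86, and at 42.3 and 44.2 TPM in untreated cells (−0.77, SE 0.09, adjusted P 0.0245, and 0.0853 with the block). LFNG, which adds sugars to the receptor, stood at 1.60 and 1.71 TPM in line 87 and at 5.66 to 9.02 TPM in the other lines (−1.62, SE 0.18, adjusted P 0.0223, and 0.0888 with the block). HES1 stood at 7.63 and 7.54 TPM in line 87, at 16.5 and 17.3 TPM in line 79, at 16.9 and 18.0 TPM in line 86, and at 12.5 and 12.8 TPM in untreated cells (−1.08, SE 0.09, adjusted P 0.0108, and 0.0485 with the block). For JAG1 and HES1 the untreated libraries lay between line 87 and the other lines. These 3 of 13 NOTCH genes tested were called, all lower, beside 0.317% of all genes tested, and the median of the list was −0.14. Of the other members, none was called, 5 of the 13 lay above 0, and in 3 of these both libraries of line 87 lay above the other 4. NEURL1B, a ubiquitin ligase of NOTCH ligands that was not in the list, was called in the other direction. It stood at 10.6 and 11.1 TPM in line 87 and at 4.87 to 5.69 TPM in the other lines (0.89, SE 0.11, adjusted P 0.0311, and 0.103 with the block).

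KISS1 was the protein-coding gene with the largest rise. It encodes the precursor of kisspeptin, known as a suppressor of metastasis and as a hormone of puberty. KISS1 stood at 109 and 107 TPM in line 87, at 4.19 and 4.396 TPM in line 79, at 6.56 and 6.94 TPM in line 86, and at 25.6 and 30.8 TPM in untreated cells (4.09, SE 0.21, adjusted P 0.00136, and 0.0206 with the block). Line 87 therefore stood above and the other lines below untreated cells. The neighbouring tested gene, GOLT1A, lies 1674 bases away and was also called, at 1.98 and 4.24 TPM against at most 0.323 TPM (1.79, SE 0.26, adjusted P 0.0461, and 0.134 with the block). GOLT1A met the filter only through line 87.

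RELN, the secreted glycoprotein reelin that guides neuron migration, stood at 54.3 and 54.8 TPM in line 87, at 17.5 and 17.9 TPM in line 79, at 16.9 and 16.3 TPM in line 86, and at 12.4 and 10.5 TPM in untreated cells (1.61, SE 0.09, adjusted P 0.00160, and 0.0188 with the block). ANKRD6, a regulator of WNT signalling, stood at 5.65 and 6.15 TPM in line 87 and at 0.259 to 0.840 TPM in the other lines (2.23, SE 0.20, adjusted P 0.0123, and 0.0654 with the block). NPPB, the B-type natriuretic peptide, stood at 12.5 and 12.1 TPM against 2.39 to 4.13 TPM, with untreated cells at 17.4 and 15.4 TPM (1.59, SE 0.19, adjusted P 0.0286, and 0.0806 with the block). In line 87 RELN and ANKRD6 stood above the other 6 libraries, and NPPB lay below the untreated level.

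The zinc finger pseudogene ZNF321P (1.56, SE 0.14, adjusted P 0.0123, and 0.0607 with the block), AHRR, the repressor of the aryl hydrocarbon receptor (1.41, SE 0.14, adjusted P 0.0170, and 0.0805 with the block), and the T cell receptor segment TRBV12-4 (1.35, SE 0.15, adjusted P 0.0193, and 0.0806 with the block) were also among the largest rises. AHRR overlaps PDCD6 on the same strand.

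**Figure D3:**
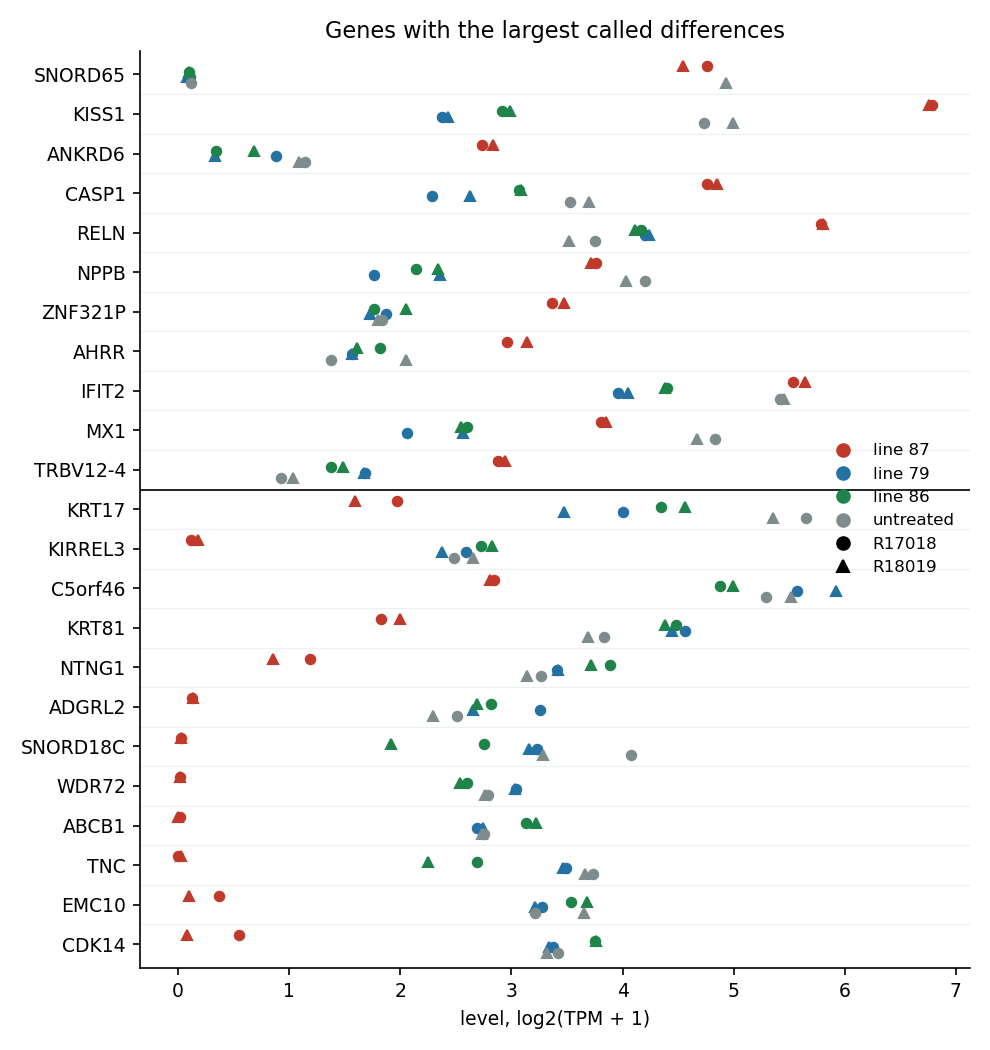
Level of 11 of the 12 genes with the largest called rise (above the line) and the 12 with the largest called fall (below it), as log2(TPM + 1) in each of the 8 libraries, with line by colour and code prefix by shape. Both red points of line 87 stand apart from the blue and green points of lines 79 and 86 in every row, and for SNORD65 the 2 untreated libraries are themselves far apart.

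Interferon-stimulated genes were the list with the most genes called higher in line 87. Interferons induce these genes through their receptors at the cell surface, and their products block viral RNA and present antigens. Of 42 tested, 4 were called higher and 0 lower, 40 lay above 0, and the median difference was 0.76. Over all genes tested 0.33% were called higher, and 50.5% lay above 0. At the unadjusted thresholds 23 were higher and 0 lower (54.8% of the list), beside 2.21% and 1.82% of all genes. When each library was left out in turn, between 15 and 24 of them passed the unadjusted thresholds and between 0 and 4 were called. The median was 0.71 in the libraries of R17018 and 0.78 in those of R18019, and 0.62 against line 79 and 0.76 against line 86.

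IFIT1 and IFIT2, which lie 83270 bases apart on chromosome 10 and whose products bind viral RNA and limit translation, were both called. IFIT1 stood at 63.1 and 68.2 TPM in line 87, at 30.03 and 31.6 TPM in line 79, at 27.0 and 30.7 TPM in line 86, and at 69.2 and 74.2 TPM in untreated cells (1.11, SE 0.10, adjusted P 0.0108, and 0.0379 with the block). IFIT2 stood at 45.2 and 48.9 TPM in line 87 and at 14.5 to 20.1 TPM in the other lines, beside 41.7 and 42.7 TPM in untreated cells (1.39, SE 0.16, adjusted P 0.0223, and 0.0900 with the block). GBP1, a GTPase of the defence against intracellular microbes, stood at 31.0 and 33.3 TPM in line 87 and at 12.4 to 14.4 TPM in the other lines, beside 25.2 and 26.6 TPM in untreated cells (1.20, SE 0.10, adjusted P 0.0108, and 0.0485 with the block). MX1, a dynamin-like antiviral GTPase, stood at 12.97 and 13.4 TPM in line 87 and at 3.16 to 5.07 TPM in the other lines, but at 27.4 and 24.5 TPM in untreated cells (1.38, SE 0.18, adjusted P 0.0355, and 0.107 with the block).

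In this group line 87 lay near untreated cells and the other lines below them. Relative to the mean of the untreated libraries, the median of the 42 genes was −0.15 in line 87, −0.60 in line 79 and −0.88 in line 86. Of the 42 genes, 28 lay below the untreated mean in line 87, 40 in line 79 and 42 in line 86.

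**Figure D4:**
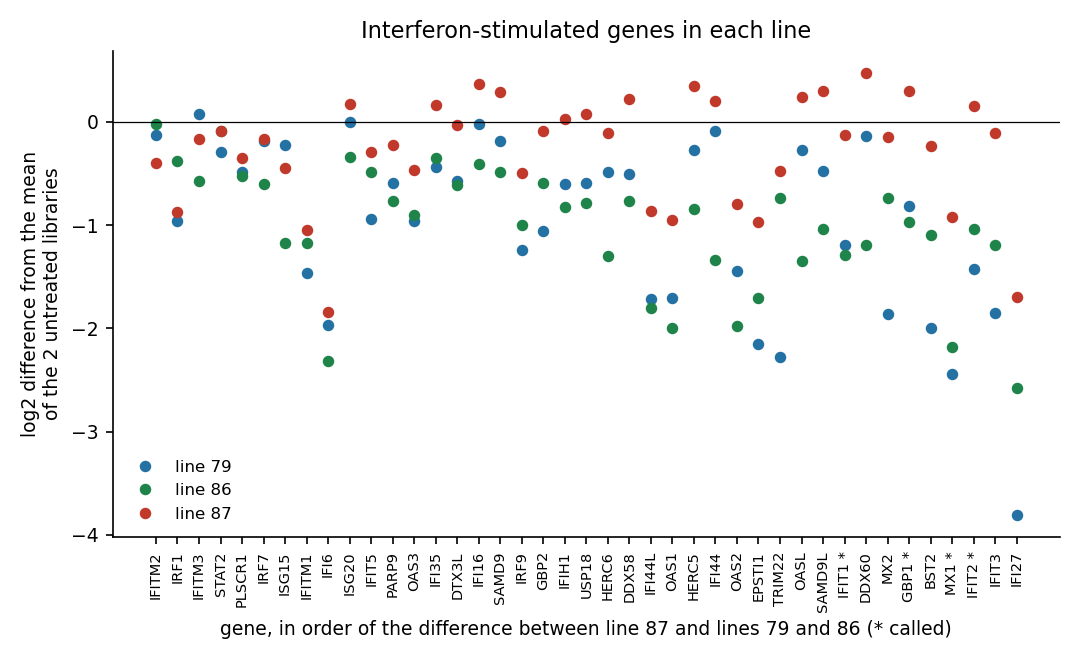
Difference of 41 of the 42 tested interferon-stimulated genes from the mean of the 2 untreated libraries (log2 scale) in each line, ordered by the difference between line 87 and the other lines. Stars mark the 4 called genes. Over all 42 genes the median was −0.15 in line 87 and lower in lines 79 and 86, at −0.60 and −0.88.

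These genes are known for a promoter element, the interferon-stimulated response element. The letters GAAANNGAAA, read on both strands, were searched in promoters of 300 bases from RefSeq (GRCh38.p14, 250 bases before to 50 after the start). They stood in 22 of the 31 promoters that matched a gene of the list and in 3.57% of all 35116 promoters. Of the 23 genes past the unadjusted thresholds, 16 had a promoter in the table and 12 of these held the letters. The stretches that carry them in the called genes GBP1 and IFIT1 are shown from 140 to 81 bases before the start, with the matches in capitals (read on the opposite strand, as TTTCNNTTTC).

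GBP1 (chr1:89065289-89065348, minus strand): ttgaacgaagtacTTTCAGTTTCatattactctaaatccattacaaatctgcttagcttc
IFIT1 (chr10:89392483-89392542, plus strand): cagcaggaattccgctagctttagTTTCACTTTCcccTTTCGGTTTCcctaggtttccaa

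IFIT1 held 2 such matches a few bases apart and GBP1 held 1. MX1 held 1 match, which starts 11 bases after the start. A match of letters is a description and shows no binding.

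Some genes of related function, outside that list, were also called higher. ZC3HAV1, an antiviral protein that marks viral RNA for decay, stood at 62.5 and 59.4 TPM in line 87, at 31.3 and 31.6 TPM in line 79, at 31.2 and 32.9 TPM in line 86, and at 42.7 and 47.1 TPM in untreated cells (0.92, SE 0.08, adjusted P 0.0108, and 0.0485 with the block). Of 15 tested genes of HLA class I and antigen processing, 2 were called higher and 0 lower, 14 lay above 0, and the median was 0.33. Among all genes tested, 0.33% were called higher and 50.5% lay above 0. PSMB9, a subunit of the immunoproteasome, stood at 51.8 and 48.9 TPM in line 87 and at 20.6 to 25.01 TPM in the other lines, beside 45.5 and 49.0 TPM in untreated cells (1.08, SE 0.11, adjusted P 0.0152, and 0.0607 with the block). HLA-B, which presents peptides to cytotoxic T cells, stood at 182 and 180 TPM in line 87 and at 105 to 127 TPM in the other lines, but at 340 and 331 TPM in untreated cells (0.65, SE 0.10, adjusted P 0.0493, and 0.138 with the block). HLA genes are near-identical copies in part, so reads may be shared between them.

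The inflammatory caspases CASP1 and CASP4 lie 56007 bases apart on chromosome 11, and both were called higher. CASP1, which cleaves the precursor of interleukin 1 beta, stood at 26.2 and 27.9 TPM in line 87, at 3.88 and 5.17 TPM in line 79, at 7.40 and 7.51 TPM in line 86, and at 10.5 and 11.98 TPM in untreated cells (2.04, SE 0.24, adjusted P 0.0271, and 0.103 with the block). CASP4, a sensor of bacterial lipopolysaccharide, stood at 131 and 122 TPM against 72.6 to 84.9 TPM (0.70, SE 0.10, adjusted P 0.0410, and 0.118 with the block). Both stood above untreated cells in line 87.

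Of 22 genes of NF-kappa B and its targets, 1 was called higher and 0 lower, 18 lay above 0, and the median was 0.27. Among all genes tested, 0.33% were called higher and 50.5% lay above 0. RELB, a subunit of the non-canonical arm, stood at 6.98 and 6.70 TPM in line 87, at 1.82 to 2.74 TPM in the other lines, and at 2.57 and 3.03 TPM in untreated cells (1.24, SE 0.16, adjusted P 0.0311, and 0.107 with the block). IL7R, the receptor chain for interleukin 7, was the called gene of 18 tested in the interleukin list, at 146 and 154 TPM in line 87, 75.9 to 85.9 TPM in the other lines and 151 TPM in both untreated libraries (0.87, SE 0.08, adjusted P 0.0145, and 0.0485 with the block).

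The genes that the study named in the overexpression lines did not set line 87 apart by the adjusted P. None of 7 CXC chemokines tested was called, and their median was −0.41. CXCL8, the neutrophil chemoattractant, stood at 329 and 350 TPM in line 87, at 327 and 301 TPM in line 79, at 212 and 256 TPM in line 86, and at 111 and 104 TPM in untreated cells (0.33, SE 0.18, adjusted P 0.552). CXCL1, a further CXC chemokine that the paper's text does not name, stood at 374 and 379 TPM in line 87, at 526 and 534 TPM in line 79, at 466 and 477 TPM in line 86, and at 283 and 278 TPM in untreated cells (−0.41, SE 0.09, adjusted P 0.151). All 6 overexpression libraries thus lay above both untreated libraries in CXCL8 and CXCL1, and line 87 was not the highest line for CXCL1.

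CXCL6 (−0.69, SE 0.15, adjusted P 0.162), CXCL3 (−0.41, SE 0.22, adjusted P 0.555) and CXCL2 (0.22, SE 0.17, adjusted P 0.685) were not called. At the unadjusted thresholds CXCL6 was lower in line 87 (limma P 0.00326). It stood at 62.0 and 59.0 TPM in line 87, at 83.5 to 115 TPM in the other lines and at 36.4 and 32.6 TPM in untreated cells. Both libraries of line 87 lay below the other 4 in 4 of the 7 CXC chemokines and above them in 1, beside 11.7% and 11.6% of all genes tested. TGFB2, a growth factor that restrains epithelial growth, stood at 11.9 and 14.04 TPM in line 87, at 11.2 to 15.2 TPM in the other lines and at 27.2 and 26.9 TPM in untreated cells, a difference between the lines of −0.01 (SE 0.15, adjusted P 0.994). MDM2, the ubiquitin ligase that degrades p53, stood at 20.5 and 63.2 TPM in line 87 and at 22.6 to 50.1 TPM in the other lines (0.24, SE 0.48, adjusted P 0.887). The 2 libraries of line 87 were further apart in MDM2 than the means of the lines, so no difference was detectable.

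Genes with a U12-type intron, the introns that U11 recognises, had differences on both sides of 0 in similar number. In 402166 introns of the GENCODE annotation (release 44), 809 started with ATATCCTT or GTATCCTT, in 631 genes, of which 465 could be tested. The class rests on these first letters alone, so some of these introns may not be of the U12 type. Their median difference was 0.01, and 241 lay above and 224 below 0. At the adjusted threshold 3 were called higher and 0 lower, beside 0.647% of all genes, and at the unadjusted thresholds 13 were higher and 1 lower, beside 2.21% higher and 1.82% lower over all genes. The 3 were GBP1, RAPGEF3 (a guanine nucleotide exchange factor that responds to cyclic AMP) and the transcript RP11-158I13.2 (1.61, SE 0.22, adjusted P 0.0414, and 0.0858 with the block). With the block, GBP1 alone of the 3 was still called, and RP11-158I13.2 met the filter only through line 87. RAPGEF3 stood at 10.9 and 11.4 TPM in line 87 and at 3.40 to 4.68 TPM in the other lines (1.31, SE 0.14, adjusted P 0.0193, and 0.0806 with the block). These tables give levels per gene, so retention or removal of the introns themselves was not measured. Of 12 proteins of the minor spliceosome, none was called and the median was −0.01.

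Along the chromosomes, most windows were level when lines 79 and 86 were pooled. In 257 of 283 windows of 10 Mb with at least 15 tested genes, the median difference was under 0.2 in size. Taken singly, the lines gave larger shifts of whole chromosomes. The median on chromosomes 10 and 7 was 0.38 and 0.33 against line 79, and −0.01 and −0.03 against line 86. On chromosomes 13, 15 and 9 it was −0.39, −0.33 and 0.22 against line 86, and 0.002, 0.02 and −0.04 against line 79. The lowest window, from base 20000001 of chromosome 13, stood at −0.32, with −0.09 against line 79 and −0.46 against line 86. Stretches on the short arms of chromosomes 5 and 11 stood out as a description, and held against both other lines and in both code prefixes. In the first 50 Mb of chromosome 5 the median of 126 genes was −0.27, with 100 of them below 0, while the other 596 genes of the chromosome had a median of −0.01. The median there was −0.25 against line 79, −0.29 against line 86 and −0.19 against untreated cells. The 2 called genes of this stretch, AHRR and IL7R, were both higher, against its direction.

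On chromosome 11 the median of 151 genes from 10 to 50 Mb was 0.43, with 138 above 0, and that of the other 707 genes was −0.002. The median was 0.61 against line 79, 0.22 against line 86 and 0.19 against untreated cells, and line 79 itself lay 0.44 below untreated cells there. NAV2, a helicase-like protein of the growing axon (0.92, SE 0.09, adjusted P 0.0145, and 0.0607 with the block), and NAT10, the enzyme that acetylates cytidine in RNA (0.64, SE 0.09, adjusted P 0.0485, and 0.133 with the block), were the 2 called genes there. The copy number of these stretches was not measured.

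**Figure D5:**
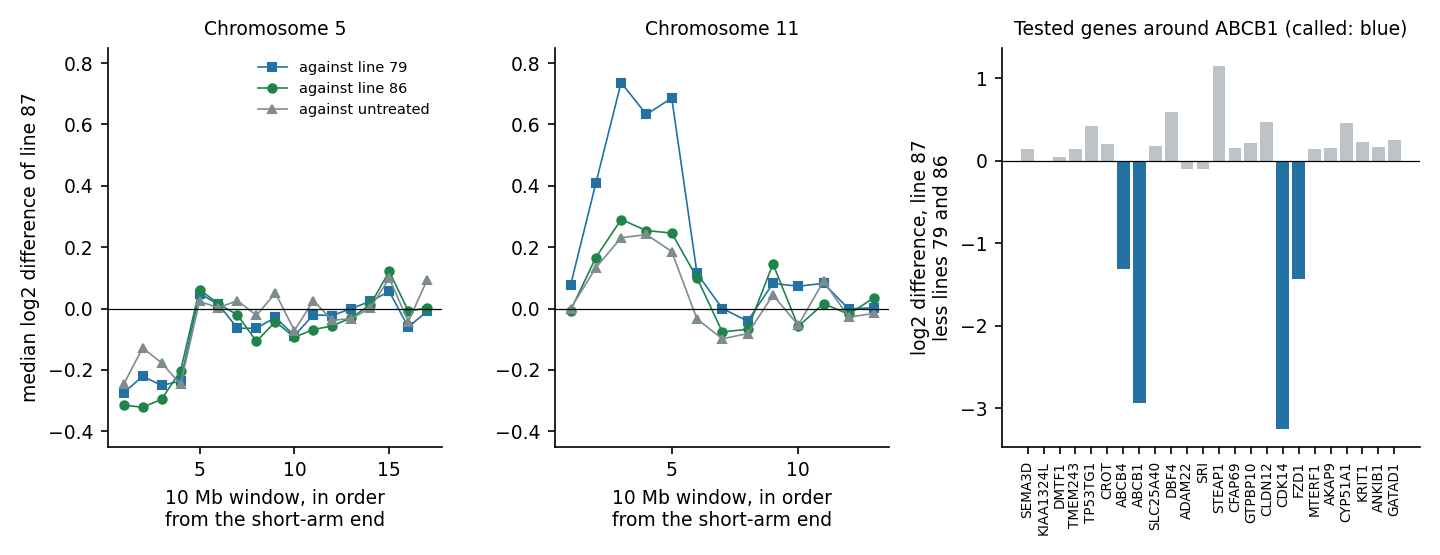
Left and middle, median log2 difference of line 87 from line 79, line 86 and untreated cells in 10 Mb windows with at least 15 tested genes, in order from the short-arm end of chromosomes 5 and 11. Right, the difference between line 87 and lines 79 and 86 for the tested genes around ABCB1 in chromosome order. The first windows of chromosome 5 lie below 0 and those from window 2 to window 5 of chromosome 11 above 0 against all 3 groups, and the 4 called genes around ABCB1 are separated by 8 genes that were not called.

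Each other line could also be taken alone. Against line 79, 759 genes (4.91%) were called, 505 higher and 254 lower in line 87, and against line 86 331 genes (2.14%) were called, 167 higher and 164 lower. These comparisons share the libraries of line 87. Of the 100 genes called against both lines together, 96 were called against line 79 and 82 against line 86 in the same direction. The 4 library pairs of line 87 with line 79 had correlations of 0.974 to 0.977 over genes, those of line 87 with line 86 0.977 to 0.979, those of line 79 with line 86 0.974 to 0.976, and those of line 87 with untreated libraries 0.978 to 0.982. Genes are not independent replicates, and all of these pairs lay below the 0.986 to 0.988 of libraries from the same line.

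The untreated libraries took no part in the test, and their place relative to the lines is given as a description, since genes in which 2 lines agree and 1 differs were selected. Of the 51 genes called higher in line 87, the untreated mean was nearer to lines 79 and 86 in 33 and nearer to line 87 in 18. Of the 49 called lower, it was nearer to lines 79 and 86 in 42 and nearer to line 87 in 7. Over all genes tested the untreated mean was nearer to lines 79 and 86 in 57.0%, and over the genes without overlap between the groups in 63.7%. Both untreated libraries lay below both libraries of line 87 in 41 of the genes called higher, and above both in 45 of those called lower. They lay within the range of the 4 libraries of lines 79 and 86 in 5 and 10 of these. Both lay beyond line 87, away from the other lines, in 5 of the genes called higher and 0 of those called lower. The 5 genes with untreated cells beyond line 87 were MX1, HLA-B, NPPB, IFIT1 and CD74, the chain that escorts HLA class II molecules (chosen after its values were seen, adjusted P 0.0293, and 0.107 with the block).

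In all, 46 gene lists were counted, with the genes that have a U12-type intron as a further list, and 28 of these had no called member. The 872 genes tested in the 46 lists held 28 called ones, 11 higher and 17 lower in line 87, beside 0.33% higher and 0.317% lower over all genes tested. Lists on growth showed no called gene, with medians of 0.04 for 40 DNA replication genes and 0.13 for 38 mitosis genes. The same was true of 24 p53 targets (−0.01), 20 YAP targets (0.02), 17 BCL2 family genes (0.09), 29 genes of the unfolded protein and ATF4 response (−0.13), 33 glycolysis and hypoxia genes (−0.09) and 6 metallothioneins (−0.22). Some of these lists still leaned to one side. Above 0 lay 29 mitosis, 25 DNA replication, 13 BCL2, 11 p53 and 10 YAP genes. Below 0 lay 23 glycolysis and hypoxia genes, 22 of the unfolded protein list and all 6 metallothioneins. Both libraries of line 87 lay above the other 4 in 11 mitosis genes, and below them in 11 glycolysis and hypoxia genes, beside 11.6% and 11.7% of all genes tested. Single called genes stood in the lists of SMAD regulators (SMAD7, an inhibitor of TGF-beta signalling, −1.01, SE 0.14, adjusted P 0.0402, and 0.109 with the block), imprinted genes (MEST, −1.70, SE 0.23, adjusted P 0.0382, and 0.121 with the block) and cancer-testis antigens (MAGEB2, 1.91, SE 0.20, adjusted P 0.0187, and 0.0806 with the block). The ribosomal RNA of the mitochondrial small subunit, MT-RNR1, was the called gene of 15 encoded by mitochondria, at 420 and 404 TPM in line 87 and 231 to 274 TPM in the other lines (0.68, SE 0.10, adjusted P 0.0440, and 0.120 with the block).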

How the data were processed

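RNA was extracted with Trizol and sequenced from T24 cells. The methods name depletion of ribosomal RNA and the labels a TruSeq RNA kit, and how the RNA was selected bears on the level of U11, which has no poly(A) tail. Per the study's methods the reads were trimmed with fastp and mapped to hg38 by Hisat2, and Stringtie then estimated gene abundance, library by library. The tables deposited by the authors give coverage (the mean read signal per base), FPKM and TPM per gene, with no read counts, so DESeq2, the test named in the methods, was not run. The aligned gigabases were read from the ratio of coverage to FPKM. With no counts, the counting error of a single value is unknown, and errors here are the spread over libraries.

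Gene identifiers were matched to GENCODE release 44: 56558 of 60504 were found, 56515 overlapping on the same chromosome. Coordinates are those of the files. Differences were tested with limma 3.58.1 (R 4.3.3; lmFit, eBayes with trend) on log2(TPM + 1), with Python 3.11.15 for the rest. The pipeline was tested on simulated data. The alternatives were a pseudocount of 0.1, FPKM, median ratio scaling, quantile normalization, other filters, no trend, lines as groups, the replicate block, line means, each line alone, untreated libraries in the fit, other thresholds and each library left out.

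The replicate numbers follow the code prefix of the libraries. Same-numbered libraries deviated together with correlations of 0.135 (lines 87 and 79), 0.160 (87 and 86) and 0.099 (79 and 86), and since the prefix is shared, the blocked value is given beside the named calls that it ends.

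The rule for named genes took the U11 entries, the genes the paper names for overexpression together with CXCL1, the called genes with the largest changes, 12 in each direction (at least 5 TPM in one group, no overlap, no clone-based symbol), up to 4 called genes per list and direction and per window. ABCB4, GOLT1A, CASP4, SLITRK4, MRFAP1, LRP1, MCAM, ZC3HAV1, UBE2E3, COPS7A, RP11-864I4.1, RAPGEF3, RP11-158I13.2, COL4A1, CD74, CLDN12 and NEURL1B were named after their values were seen. The comparison, the members and the gene lists were chosen with earlier results of these data known. The libraries of prefix R18051 were not used here. A few genes that these rules name are not reported here, and the counts over all genes and over the lists include them.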

Additional observations from a re-analysis of the deposited data

Results flagged for a closer look

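The genes looked at were 53, those of the naming rule and the other called members of the gene lists. In 11 of them, both libraries of line 87 lay on one side of the untreated library with the same code prefix and all 4 libraries of lines 79 and 86 on the other. The difference itself is the limma contrast of the report. Line 87 stood above and the others below untreated cells in KISS1 (4.09), ANKRD6 (2.23), CASP1 (2.04), MAGEB2 (1.91), IFIT2 (1.39) and GBP1 (1.20). The reverse held for ADGRL2 (−2.73), NTNG1 (−2.58), KRT81 (−2.56), HES1 (−1.08) and JAG1 (−0.775). Most of the 53 were picked because they were called, so the separation of line 87 from lines 79 and 86 was set by that choice. Genes outside these 53 were not searched for this arrangement. Its share over all genes tested was not counted, so whether 11 of 53 is many cannot be told.

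In 3 of the 53 genes, 1 of the 4 libraries of lines 79 and 86 lay far from the other 3, with a gap to its neighbour, as a share of the range of the 4, above the limit of Dixon's test at the 95% level. These were MX1 (0.9017, library 79-1 the lowest), ITGB3 (0.8983, 86-1 the highest) and AHRR (0.8292, 86-1 the highest). Chance flags about 1 in 20 such groups. Lines 79 and 86 are 2 labels, so these 4 libraries are not replicates of 1 line.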

How the results depend on the processing

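The count of 100 called genes was 94 to 102 with a pseudocount of 0.1, FPKM, median ratio scaling, quantile normalization or no trend. It was 47 with a filter of 1 TPM in all 6 libraries and 47 with no filter, 497 with the 3 line labels as groups, 759 against line 79 alone, 331 against line 86 alone, 154 with the untreated libraries in the fit, 623 with unadjusted P, 19 with the replicate block and 0 with line means (524 at an unadjusted P under 0.05). Each library left out in turn gave 8 to 52, with 8 without 87-1 and 11 without 87-3, where the lone library of line 87 is assumed to vary like the others. KISS1, RELN, CDK14, EMC10 and KRT81 were called in all 6 of these fits. SNORD65 and ANKRD6 were called in the 4 fits without a library of line 79 or 86. Without a library of line 87 they fell under the filter and were not tested.

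The 28 called list genes became 99, 120, 71 and 0 (78 at an unadjusted P under 0.05) with line labels as groups, line 79 alone, line 86 alone and line means, 15 with no filter, 6 with the replicate block, 90 with unadjusted P, and 1 to 14 with a library left out. Against line 79 the replicate block gave 158 calls and unadjusted P 1377, and against line 86 they gave 0 (1014 at the unadjusted thresholds, lowest adjusted P 0.0890) and 1026, settings chosen after seeing the data. The median of genes with a U12-type intron was −0.016 against line 86 alone. With 5 Mb windows, 41 of 376 had a median of at least 0.2 in size, beside 26 of 283. The share of called genes with the untreated mean nearer to lines 79 and 86 was 75%, 73% in R17018 and 72% in R18019 alone (chosen after seeing the data), and 74% with a pseudocount of 0.1. The U11 ratio stayed between 21.3 and 40.1 with a library left out. TGFB2 turned positive with FPKM (0.0040) and against line 86 alone (0.15) and ran from −0.117 to 0.104 with a library left out, and MDM2 ran from −0.552 (without 87-3) to 1.02 (without 87-1). The cause of these changes was not tested, beyond the fewer libraries or genes of a setting.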
